A study of Drosophila melanogaster with 2 samples.

Results

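The genes of translation initiation factors, elongation factors and aminoacyl-tRNA synthetases were examined in a chromatin immunoprecipitation and sequencing (ChIP-seq) map of Hr96, a Drosophila melanogaster nuclear receptor best known for its part in the handling of dietary sterols and stored fat. The members are the protein-coding genes whose symbols start with eIF or eEF, and those whose symbols end in RS (cytosolic) or RS-m (mitochondrial) after an amino acid name. They number 87 of the 13945 protein-coding genes on the 6 main chromosome arms, with 44 initiation factor, 8 elongation factor, 20 cytosolic synthetase and 15 mitochondrial synthetase genes. The chromatin came from whole adult females, of unknown age, of a line stably carrying Hr96 with eGFP at its C-terminal end, and an antibody to GFP precipitated the fusion. There were 2 biological replicates, numbered 1 and 3, in 1 group, with no second condition and no sample lacking the fusion, so signal unrelated to Hr96 cannot be told apart from binding. Whole females mix all tissues, so a peak does not show in which cells it arose.

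Translation starts when initiation factors bring the small ribosomal subunit and the initiator tRNA to a start codon on a capped messenger RNA, and elongation factors then feed in charged tRNAs and move the ribosome along. Each aminoacyl-tRNA synthetase charges tRNAs with its amino acid, in the cytosol or, for a separate set of nuclear genes, in mitochondria. Many of these genes are expressed in nearly all cells and are best known as growth genes, not as nuclear receptor targets.

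A gene is called bound below where a summit of the final peak list lay within 500 bp of any of its annotated transcription start sites (TSSs). That list, chosen by the authors by the irreproducible discovery rate (IDR), holds 3607 peaks on the dm6 build. The pooled list and each replicate's list hold 30000 peaks and background regions each. Signal is the strength the authors' peak caller gave a peak. Its scale differs between lists, so ranks (1 for the strongest) are set side by side. No source used here states how many reads were sequenced, and the depth behind a peak is unknown. Counts are given without tests, since with 1 group there is no contrast between samples.

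Of the 87 member genes, 22 were bound, which is 25.3% (exact 95% interval 16.6 to 35.7%), beside 18.1% of all protein-coding genes. Elongation factor genes counted 4 of 8 (50%, interval 15.7 to 84.3%). Cytosolic synthetase genes counted 6 of 20 (30%, interval 11.9 to 54.3%), initiation factor genes 10 of 44 (22.7%, interval 11.5 to 37.8%) and mitochondrial synthetase genes 2 of 15 (13.3%, interval 1.66 to 40.5%). Each of these intervals holds the 18.1% of all genes, and they overlap one another, so a difference between the groups was not detectable with these numbers of genes. Peak strength ran in the same order in the IDR list. Bound members had a median signal of 180.0, beside 126.2 over all 2526 bound genes, with medians of 231.1 for elongation factors, 180.6 for cytosolic synthetases, 165.4 for initiation factors and 93.9 for mitochondrial synthetases. The number of annotated TSSs moved with the call. Members with 2 or more TSSs were bound in 14 of 29 cases (48.3%), beside 32.9% of all such genes, and members with 1 TSS in 8 of 58 (13.8%), beside 12.8% of all such genes. Of the members 33.3% had 2 or more TSSs, beside 26.5% of all genes. By group this was 62.5% of elongation factor, 35% of cytosolic synthetase, 34.1% of initiation factor and 13.3% of mitochondrial synthetase genes. That is the same order as the share of bound genes. The part of TSS number in the share of bound genes was not tested.

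**Figure D1:**
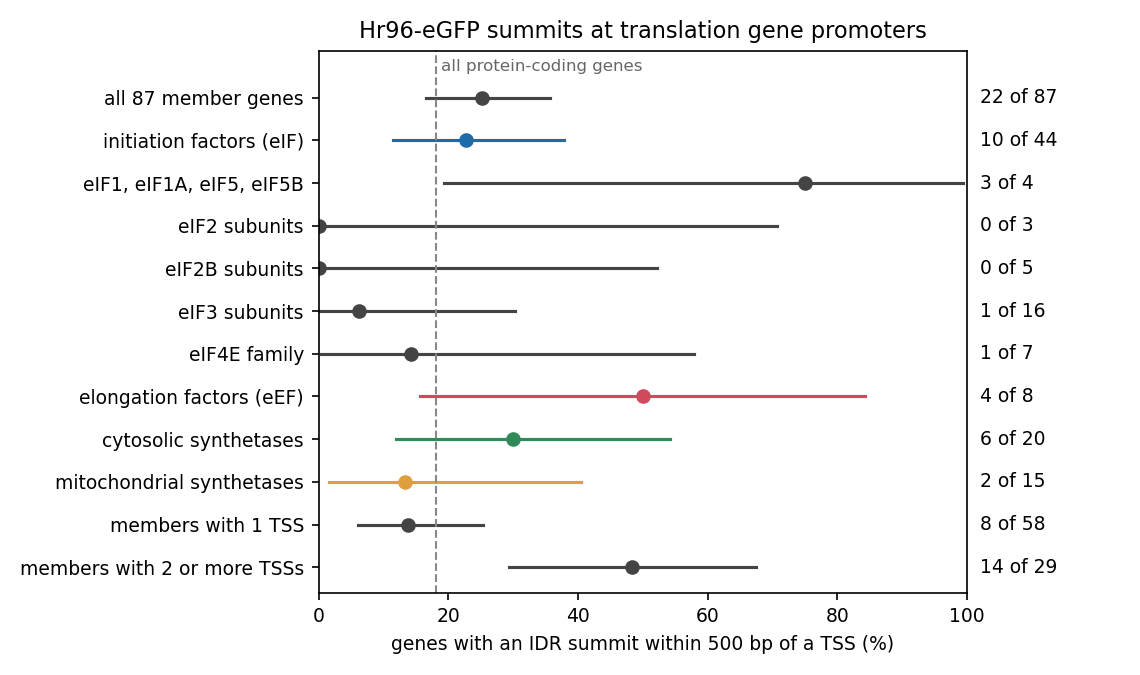
Share of genes bound in the IDR list (points, in percent) with exact 95% binomial intervals (lines), for the member genes, their groups and some of their complexes. The dashed line marks 18.1% of all protein-coding genes, and the counts stand at the right. The intervals of the 4 groups all cross that line.

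The strongest promoter peak among the initiation factors was at eIF6, a factor that keeps the large ribosomal subunit from joining too early and is needed to make it. Its signals were 964.1 in replicate 1 and 306.8 in replicate 3, at ranks 7 and 21. In the IDR list it ranked 9 with a signal of 1272, at chr2R:23850246-23850566, with the summit 105 bp upstream of its single TSS. It stood far above the other members: the second, eIF1, had an IDR signal of 490.7.

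Of the 4 factors of start codon choice and subunit joining, a grouping made after the values had been seen, 3 were bound (interval 19.4 to 99.4%, beside 18.1% of all genes). All 4 genes have a TSS of another gene within 500 bp of their own, and of all such genes 30.2% were bound. eIF1, which checks the start codon, had signals of 333.8 and 150.3 in replicates 1 and 3 (ranks 126 and 149). Its strongest IDR summit lay 328 bp upstream of its TSS and 53 bp upstream of the TSS of RpL28, a ribosomal protein gene on the opposite strand, and a second IDR summit lay 128 bp from the TSS of eIF1. eIF1A, the partner of eIF1 in scanning, had signals of 87.9 and 52.9 (ranks 1276 and 1299). eIF5B, the GTPase of subunit joining, had 66.4 and 45.1 (ranks 1799 and 1704). The ranks of these 3 genes differed little between the replicates. The fourth, eIF5, which stimulates GTP hydrolysis by eIF2, had no summit within 500 bp of a TSS in any list.

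Further groups within the initiation factors were also made after the values had been seen. None of the 3 eIF2 subunit genes (eIF2alpha, eIF2beta and eIF2gamma) and none of the 5 eIF2B subunit genes, whose products reload eIF2 with GTP, had an IDR summit within 500 bp. A count of 0 allows a share of up to 60.0% for eIF2B and gives no limit for eIF2, so with 18.1% of all genes bound these counts do not show a lower share. The factors eIF2A and eIF2D, which in mammals can bring tRNA to the ribosome without eIF2, were both bound. eIF2A had signals of 93.1 and 43.7 in replicates 1 and 3 (ranks 1192 and 1798). eIF2D was much lower in replicate 3, with 62.6 in replicate 1 (rank 1941) and 16.1 in replicate 3 (rank 9300).

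eIF3, the largest initiation factor, was bound at 1 of its 16 genes (6.25%, interval 0.158 to 30.2%, which holds the 18.1% of all genes). The 16 include paralogs such as eIF3d2, eIF3f2 and eIF3g2. At 12 of the 16 no list had any summit within 500 bp (75.0%, beside 44.1% of all protein-coding genes). The bound gene, eIF3h, rested on replicate 3, where the signal was 86.6 (rank 507). The nearest summit of replicate 1 was 4142 bp from its TSSs. The gene eIF3a, which encodes the scaffold of the complex, showed the opposite pattern. Replicate 1 had a summit 63 bp from its TSS with a signal of 115.2 (rank 891), and neither replicate 3 nor the pooled list had one within 500 bp. eIF3f1 likewise had a summit in replicate 1 alone (signal 49.2, rank 2551, 12 bp from the TSS).

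Among the cap-binding proteins, eIF4EHP was the bound gene of 7 in the eIF4E family (14.3%, interval 0.361 to 57.9%, beside 18.1% of all genes). It encodes a protein that binds the cap without recruiting eIF4G and so represses translation. Its signals were 257.7 in replicate 1 and 171.6 in replicate 3, at ranks 230 and 112, and the IDR rank was 183. No summit of replicate 3 lay within 100 bp of the IDR summit at this promoter. eIF4E1, the main cap-binding initiation factor, had 4 TSSs and no summit within 500 bp of them in any list. eIF4A, the RNA helicase that unwinds leaders, had signals of 108.5 and 90.9 (ranks 986 and 456), with the strongest summit 114 bp upstream of the most internal of its 3 TSSs. Its cofactor genes eIF4B, eIF4H1 and eIF4H2 were unbound. eIF4G2, known in flies for its role in the male germ line, had the weakest IDR peak of all bound members (signal 79.9, rank 2506; 49.6 and 27.9 in replicates 1 and 3). Its TSS is shared to the base with CG33111. eIF4G1, the general scaffold, had a summit in replicate 3 alone (signal 26.0, rank 4143).

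**Figure D2:**
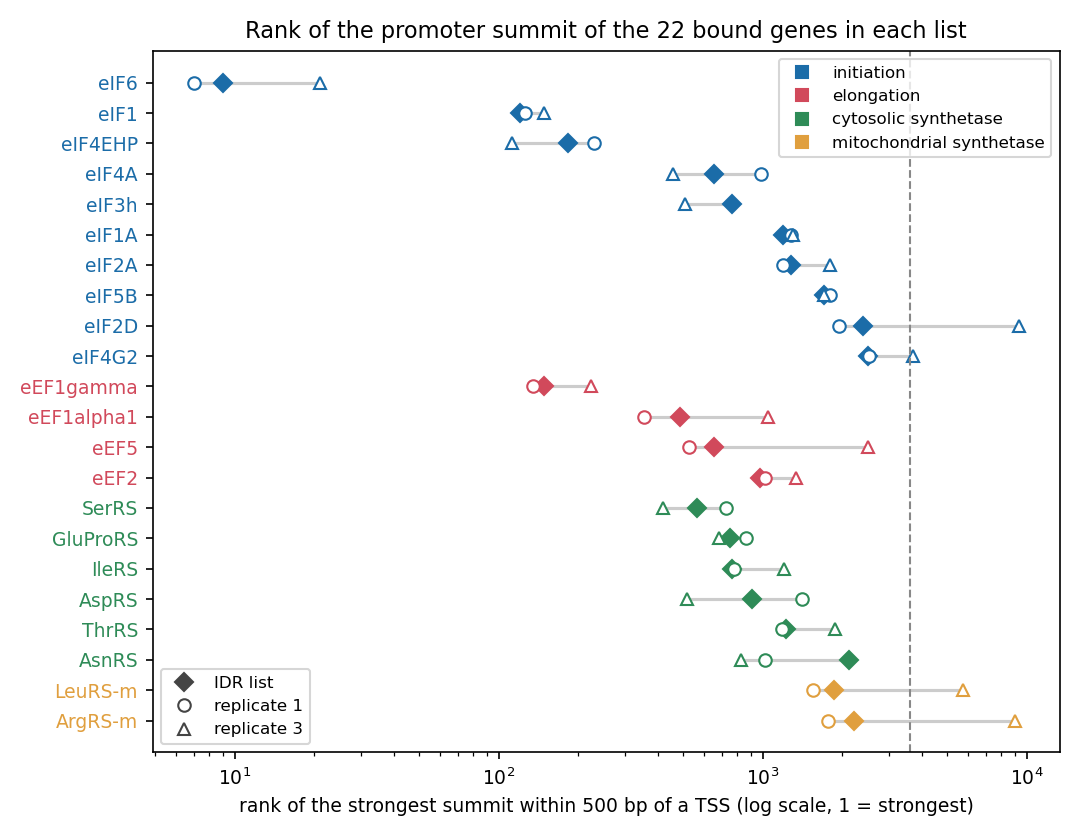
Rank of the strongest summit within 500 bp of a TSS for the 22 bound genes (log axis, 1 is the strongest), in the IDR list (filled diamonds), replicate 1 (circles) and replicate 3 (triangles), coloured by group. The dashed line marks rank 3607. eIF6 stands at ranks 7 to 21, and LeuRS-m, ArgRS-m, eIF2D and eIF4G2 cross the line in replicate 3.

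Elongation factor genes had the highest share of bound members of the 4 groups, and also the highest share of genes with 2 or more TSSs (5 of 8). All 4 bound elongation factor genes had 2 or more TSSs. eEF1gamma, a subunit of the complex that recharges eEF1alpha with GTP, had signals of 327.3 in replicate 1 and 124.8 in replicate 3 (ranks 135 and 224; IDR signal 441.4). eEF1alpha1, which delivers charged tRNAs to the ribosome, had 207.7 and 59.7 (ranks 355 and 1044), and 3 IDR summits lay within 500 bp of its 4 TSSs. Both were high in both replicates, with the better rank in replicate 1. eEF5, the hypusine-bearing factor also known as eIF5A, had 166.6 and 35.9 (ranks 524 and 2503), the widest gap in log2 signal between replicates of any matched member. By difference in rank, eIF2D, ArgRS-m and LeuRS-m had wider gaps. eEF2, the translocation GTPase, had 104.9 and 52.1 (ranks 1019 and 1341). The summits of these 4 genes lay between 42 bp upstream and 10 bp downstream of a TSS.

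The other 4 elongation factor genes were unbound. The eEF1 subunit genes eEF1beta and eEF1delta, whose products work with eEF1gamma, had no summit within 500 bp in any list. eEF1alpha2, the second gene for eEF1alpha, had one in replicate 1 alone (signal 47.5, rank 2665). eEFSec, the selenocysteine-specific factor, lay just outside the window: an IDR summit with a signal of 79.3 (rank 2529) was 530 bp from its TSS. Similarly, the strongest peak of the whole series (IDR signal 2692) lay 692 bp from the TSS of eIF2Bbeta, and a peak of rank 2232 lay 729 bp from that of eIF2Bdelta. Those 3 genes became bound with a window of 1000 bp.

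The bound cytosolic synthetase genes had IDR signals between 90.8 and 233.7. SerRS led with signals of 133.2 and 94.5 in replicates 1 and 3 (ranks 726 and 418; IDR signal 233.7). GluProRS, a fused enzyme that charges both glutamate and proline tRNAs, had 118.3 and 75.7 (ranks 861 and 680). IleRS had 127.2 and 54.9 (ranks 778 and 1200), AspRS 81.6 and 85.7 (ranks 1413 and 518) and ThrRS 93.8 and 42.5 (ranks 1183 and 1873). AspRS was the only matched member with the higher signal in replicate 3, on scales set separately for each library. By rank, AspRS, SerRS, GluProRS, eIF4A and eIF5B all stood higher in replicate 3. AsnRS had an IDR signal of 90.8 at a summit 287 bp upstream of its TSS, while the strongest summits of both replicates lay nearer, 65 and 75 bp from the TSS, with signals of 105.3 and 67.3 (ranks 1015 and 830). All 6 had a matching summit within the strongest 3607 of both replicates. Neither subunit gene of the cytosolic phenylalanine enzyme was bound, and alpha-PheRS had a summit in replicate 3 alone (signal 37.9, rank 2274).

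Both bound mitochondrial synthetase genes were weak and rested mainly on replicate 1. LeuRS-m had signals of 75.5 and 20.9 in replicates 1 and 3 (ranks 1553 and 5744), and ArgRS-m had 68.0 and 16.3 (ranks 1759 and 8999). No mitochondrial synthetase gene had a promoter summit among the strongest 3607 of replicate 3, a count of 0 of 15, which allows a share of up to 20.0% (18.4% of all protein-coding genes had one). At 10 of the 15 no list had any summit within 500 bp (66.7%, beside 44.1% of all protein-coding genes). For 15 amino acids the annotation gave a gene of each kind. The cytosolic gene alone was bound for 6 of them, the mitochondrial gene alone for 2, neither for 7 and both for 0 (up to 20.0%). The 6 rest on 5 bound genes, since GluProRS serves both glutamate and proline. With so few bound genes of each kind, these counts do not show that the calls exclude each other.

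Just below the IDR limit stood 2 further cytosolic synthetase genes. GlyRS had a pooled signal of 58.5 (rank 3727), with 30.3 (rank 3281) in replicate 3 and no summit in replicate 1. TyrRS had a pooled signal of 55.7 (rank 3979), with 44.8 (rank 2888) in replicate 1 and 13.2 (rank 14231) in replicate 3. AlaRS (pooled rank 5074), AlaRS-m (5294), eIF2Bbeta (5587), ProRS-m (7671), eIF2Bgamma (10901), HisRS (16049), eIF4H2 (21918), eIF4E4 (22775) and eIF4E3 (23841) followed. In all, 11 of the 65 unbound members had a pooled summit within 500 bp, beside 2980 of all 11419 unbound protein-coding genes. Counting any region of the pooled list, 33 of 87 members had one (37.9%), beside 39.5% of all protein-coding genes. The whole list of replicate 1 gave 34 members (beside 39.0%) and that of replicate 3 gave 38 (beside 44.2%). The strongest 3607 of each gave 26 (beside 18.6%) and 21 (beside 18.4%). For 42 members (48.3%, beside 44.1% of all genes) no list had any.

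Most bound members recurred in both replicates. Of the 22, 20 had a summit within 100 bp of their IDR summit in both lists (81.7% of all bound genes did), and the 2 without were eIF3h and eIF4EHP. Within the strongest 3607 of each replicate the count was 16 of 22, beside 59.5% of all bound genes. Across the 20 matched members, log2 signals in replicate 1 and replicate 3 gave 0.78 as Spearman's rho and 0.82 as Pearson's r (0.75 and 0.73 without eIF6). Over the 1540 matched summits of all bound genes these were 0.66 and 0.71. The points share both libraries and the control, so this is a description across genes. The IDR list was itself derived from these 2 replicates. Recurrence and correlation among bound genes are therefore in part built in by that choice. The log2 signal of replicate 1 less that of replicate 3 had a median of 1.12 in matched members and 0.98 in all bound genes, on scales set separately for each library.

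**Figure D3:**
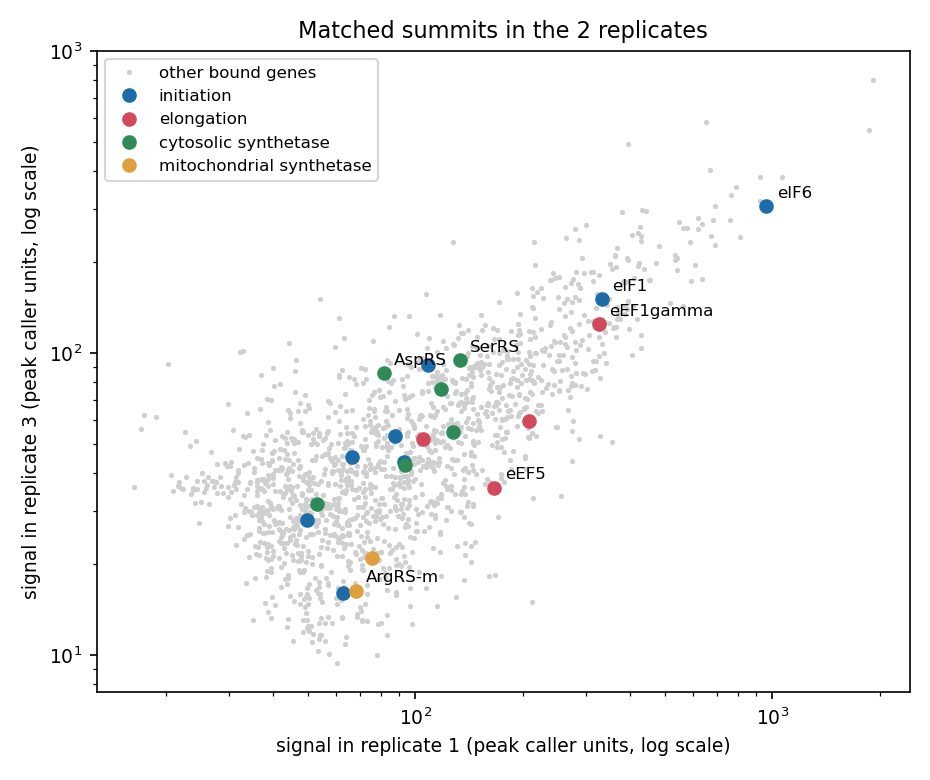
Signal of the matched summit in replicate 1 (x axis) and replicate 3 (y axis), in peak caller units on log axes, for 20 matched member genes (coloured by group) over the other bound genes (grey). eIF6 lies at 964.1 and 306.8, AspRS toward replicate 3, and eEF5 and ArgRS-m toward replicate 1.

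Judged by the strongest IDR summit alone, bound synthetase genes shared their peak with a neighbouring gene and bound elongation factor genes did not. The difference was not tested. Of the bound elongation factor genes, eEF1alpha1 has a TSS of ERp60, on the opposite strand, within 500 bp of its own. Sharing of its weaker IDR summits was not scored. The summit also lay within 500 bp of the TSS of another protein-coding gene for all 6 bound cytosolic and both bound mitochondrial synthetase genes, for 5 of 10 bound initiation factor genes and for 0 of 4 bound elongation factor genes (a count that allows up to 75.0%), beside 50.4% of all bound genes. The annotation alone differed in the same way: 16 of 20 cytosolic synthetase genes (80.0%), 7 of 15 mitochondrial ones (46.7%), 19 of 44 initiation factor genes (43.2%) and 2 of 8 elongation factor genes (25.0%) had a TSS of another gene within 500 bp of their own, beside 30.9% of all genes. Over the genome, 30.2% of genes with such a neighbour were bound and 12.7% of those without. Among members the counts were 15 of 44 with a neighbour and 7 of 43 without.

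In 12 of the 13 shared cases the neighbour ran on the opposite strand. SerRS and CG17260 started 8 bp apart, with the summit 37 bp inside SerRS. GluProRS shared its peak with AP-1sigma, a clathrin adaptor subunit, and IleRS with Hem, a subunit of the actin-regulating WAVE complex. AspRS shared with Nmda1, ThrRS with Patsas, and AsnRS with DCTN6-p27, a dynactin subunit. LeuRS-m shared with Dhc64C, the heavy chain of cytoplasmic dynein, ArgRS-m with CG17816, eIF1A with Vps39, a protein of endosome and lysosome fusion, eIF3h with senju, and eIF4EHP with CG18428. The neighbour's TSS was nearer to the summit than the member's in 5 of the 13 cases (eIF1, eIF1A, AspRS, AsnRS and LeuRS-m). A peak between 2 start sites does not tell which gene it serves.

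**Figure D4:**
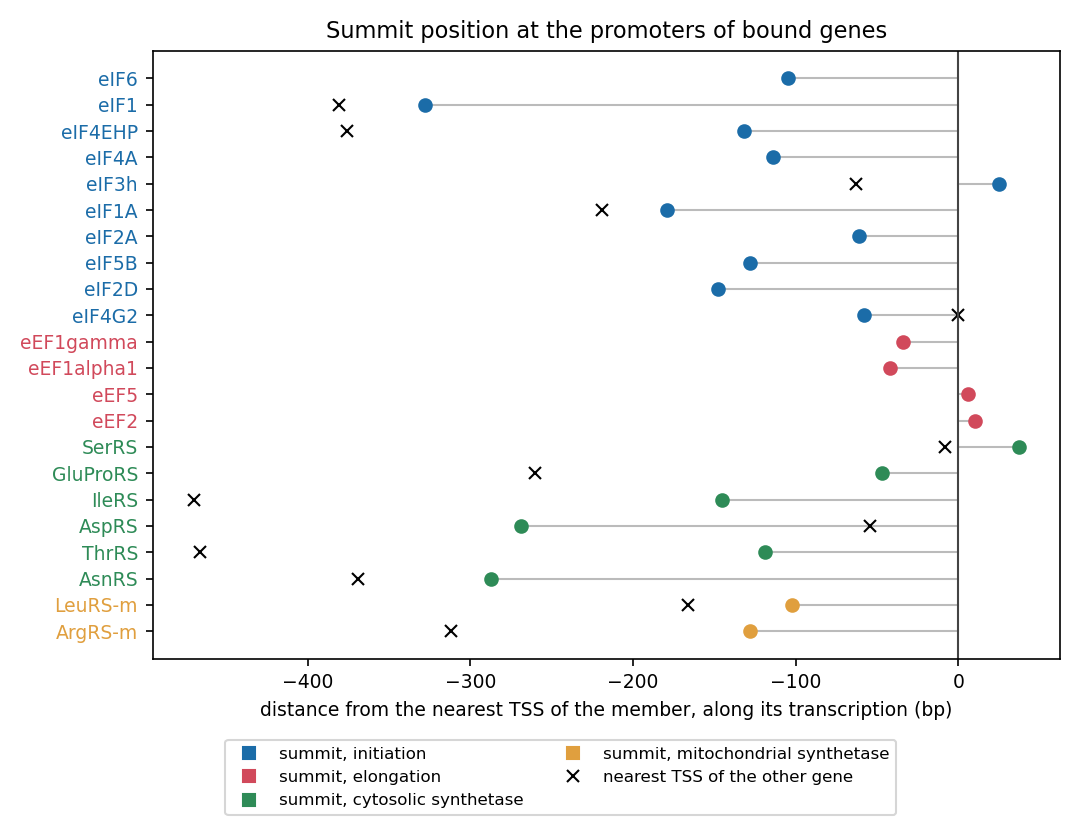
Position of the strongest IDR summit (circles, coloured by group) along the direction of transcription, in bp from the member's nearest TSS at 0, for the 22 bound genes. Crosses mark the nearest TSS of another protein-coding gene that also lies within 500 bp of the summit; none stands at an elongation factor gene, and each synthetase gene has one.

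Summits lay upstream of the nearest TSS of the member for 18 of 22 (81.8%, beside 80.4% of all bound genes), from 328 bp upstream to 37 bp downstream, with a median distance of 109.5 bp (127 bp over all bound genes).

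The DNA replication-related element (DRE), a core promoter sequence bound by the factor DREF at many growth genes, was found close to the summit of 4 bound members. Its letters are TATCGATA, the same on both strands. It lay within 100 bp of the summit for eIF1, eIF1A, eIF2A and eEF1gamma (18.2% of 22, beside 7.64% of all bound genes). These sites are shown because the element stands nearest to the measured summit there, 3 bp away at eEF1gamma, 19 bp at eIF1A, 24 bp at eIF2A and 36 bp at eIF1. Capitals mark the element, and each is given 5′ to 3′ on the strand of the member (the plus strand in each case), from the RefSeq copy of dm6 at chr3R:29220085-29220184, chr3R:18274417-18274516, chr3L:21824865-21824894 and chr3L:3222999-3223098.
eEF1gamma: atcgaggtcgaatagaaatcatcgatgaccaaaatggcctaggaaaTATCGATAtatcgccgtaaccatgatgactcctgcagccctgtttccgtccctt
eIF1A: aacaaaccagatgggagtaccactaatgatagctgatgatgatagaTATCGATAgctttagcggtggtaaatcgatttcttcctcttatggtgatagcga
eIF2A: ttactatcgctTATCGATAcaccgcgtaca
eIF1: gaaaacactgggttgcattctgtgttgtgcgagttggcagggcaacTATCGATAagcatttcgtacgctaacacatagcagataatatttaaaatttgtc

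Counted from 250 bp before to 50 bp after any TSS, DRE stood at 21 of 87 member promoters (24.1%, beside 10.2% of all protein-coding genes): 7 of the 22 bound and 14 of the 65 unbound members. Of all bound genes 14.5% had DRE there, and of all unbound genes 1050 of 11419. Bound and unbound members thus both held it, and its part in the peaks was not tested. It was in 13 of 44 initiation factor promoters, 2 of 8 elongation factor, 5 of 20 cytosolic and 1 of 15 mitochondrial synthetase promoters.

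The start sites of 6 bound members carried CTTT with its C within 5 bp of a TSS on the gene's strand, the core of the TCT initiator, a polypyrimidine start site known from fly ribosomal protein and other translation genes. They were eIF4A, eEF1alpha1, eEF5, eEF2, SerRS and ThrRS. The count was 6 of 22 bound and 5 of 65 unbound members, beside 8.07% of all protein-coding genes and 12.2% of all bound genes, and 3 of the 4 bound elongation factor genes had it. For comparison, 4 of these start sites are shown (that of eIF4A at its most internal TSS, and that of SerRS at the TSS 103 bp from the summit, not the one 37 bp from it), with 15 bases before the TSS and 15 from it on, with CTTT in capitals, on the gene's strand. They come from dm6 chr2L:21682102-21682131 (minus strand), chr2L:3037249-3037278 (minus strand), chr2L:12103736-12103765 (plus strand) and chr2L:5982579-5982608 (plus strand).
eEF2: gtcgctgcagcgcctcgctCTTTcctgtcg
SerRS: cacttaccaccatcgCTTTccagcactgcc
ThrRS: cctggtaacactgtgcccCTTTttgataaa
eIF4A: cctagctatcgCTTTcggtctcatacgtaa

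The E-box CACGTG, a palindrome bound by Myc and other factors, was at 5 of 22 bound members (eIF4A, eIF2A, eEF2, ThrRS and LeuRS-m) and 3 of 65 unbound ones, beside 5.30% of all protein-coding genes and 7.01% of all bound genes. Within 100 bp of the summit it was found at eEF2 and LeuRS-m (2 of 22, beside 2.77% of all bound genes), and these sites are shown with the E-box in capitals, from dm6 chr2L:21682150-21682247 (minus strand) and chr3L:4825783-4825880 (plus strand).
eEF2: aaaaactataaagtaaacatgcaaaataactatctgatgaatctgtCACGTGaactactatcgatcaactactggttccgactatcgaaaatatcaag
LeuRS-m: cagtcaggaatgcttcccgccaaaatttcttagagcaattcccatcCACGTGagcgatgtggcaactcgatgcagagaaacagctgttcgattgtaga

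The nuclear receptor core AGGTCA, on either strand, was at 8 of 87 member promoters (9.20%, beside 7.53% of all genes). Of the bound members ThrRS alone had it there (1 of 22, beside 8.39% of all bound genes). No bound member had it within 100 bp of the summit (0 of 22, which allows up to 13.6%, beside 3.05% of all bound genes). Its unbound carriers were eIF4E4, eIF4G1, eEF1beta, GlnRS, MetRS, beta-PheRS and TyrRS-m. The M1BP core GGTCACACT, which shares the letters GGTCA with AGGTCA, was at 9 member promoters (10.3%, beside 6.78%). Of these eIF5B was the one bound (1 of 22, beside 9.46% of all bound genes). This core was near 0 of 22 summits (beside 3.52% of all bound genes). GAGAG was at 22 member promoters (25.3%, beside 36.3%). Of the bound members 7 had it (31.8%, beside 47.7% of all bound genes). GAGAG was near the summits of eIF4A and ArgRS-m (2 of 22, beside 24.7%). TGATGNAAT, an element of the type bound by ATF4, a stress factor known for inducing synthetase genes in mammals, was at 4 (4.60%, beside 1.60%): the bound genes eIF2A, eIF4G2 and ThrRS and the unbound eIF4E3. The 3 bound carriers are 13.6% of 22, beside 1.70% of all bound genes. This element lay near 1 summit, that of eIF4G2 (beside 0.831% of all bound genes). Genes with more TSSs have more sequence searched, and a match is not a binding site.

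For contrast, 2 strong peaks without any of these motifs within 100 bp of the summit are given. Shown are the 101 bases around the summit on the gene's strand, with the 11 central bases in capitals. The IleRS promoter is among those counted above with DRE and GAGAG, which lay farther from its summit. Stronger peaks without these motifs near the summit exist, such as that of eIF6 (rank 9). eIF4EHP is at dm6 chr3R:24109042-24109142 (minus strand) and IleRS, in the stretch shared with Hem, at chr3L:22288470-22288570 (plus strand).
eIF4EHP: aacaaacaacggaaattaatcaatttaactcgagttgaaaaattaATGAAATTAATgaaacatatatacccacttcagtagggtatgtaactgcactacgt
IleRS: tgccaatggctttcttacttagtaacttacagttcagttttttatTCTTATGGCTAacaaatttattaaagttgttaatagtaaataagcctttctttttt

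Other translation genes, taken from a list of partners, counted 7 bound of 29 (24.1%, beside 18.1% of all genes). Cytosolic ribosomal protein genes, matched by symbol, counted 62 of 92 (67.4%) and mitochondrial ones 21 of 73 (28.8%). Termination and recycling factors counted 3 of 5, with HBS1 (IDR signal 118.5), eRF3 (rank 1554) and eRF1 (86.5), each sharing the peak with a neighbour. The call at eRF1 was weak, with no summit within 500 bp in replicate 1 and rank 10305 in replicate 3. Cap and poly(A) regulators counted 3 of 10. They were Thor, the 4E-binding protein that blocks eIF4E (214.9, the strongest partner), Paip2, which inhibits the poly(A)-binding protein (91.1), and crc, the fly ATF4 (82.4). Synthetase partners counted 1 of 7 (GatA, 89.5, a subunit of the enzyme that makes glutamine tRNA in mitochondria). Mitochondrial initiation, elongation and recycling factors counted 0 of 7, which allows up to 42.9%. Of these, mEFTu1 and mIF2 had a summit within the strongest 3607 of replicate 1 (ranks 1351 and 2898) and not of replicate 3.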

How the data were processed

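Peak lists of ChIP-seq libraries from 2 samples were used. Per the deposited text lists, the authors called regions in each library against 1 control file common to both, repeated this on the pooled alignments, and derived the IDR list from the outcome. The signal and the −log10 of a q-value were deposited by the authors for each peak and recognised here by narrowPeak column order; the q-value was not used further. No source used here gives the aligner, the peak caller or the IDR threshold. Hr96 is entered as the antibody in 1 label field while another describes an antibody to GFP, which was taken as correct. A shared control can add to the overlap of the replicates, and p-values were not computed.

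Gene positions came from the Ensembl release 115 annotation of BDGP6 (dm6), and DNA letters from RefSeq's copy of dm6. The strongest summit within 500 bp of any TSS was taken per gene and list, and summits within 100 bp were matched. Exact Clopper-Pearson intervals at 95% reflect counting error alone. For a count of 0, the limit given is the share that 3 counts would make, also for eIF2 and eIF2B. For eIF2 that share is 100%, which sets no limit. The dm3 lists were not used, since coordinates were not converted. Members, groups, partners and motifs were chosen with earlier results of these data known, and the complexes within the initiation factors were set after the values had been seen. Genes were named by a rule: in each group up to 8 bound members with the strongest IDR signal with their paralogs and partners, up to 3 unbound members with the strongest pooled summit, the weakest bound member, members with an IDR summit 500 to 1000 bp away, and up to 6 partners. The other bound genes, those with a summit in 1 replicate alone, the weaker unbound members and carriers of motifs were named after their values had been seen. The gene assignment was tested on simulated data. Of 32 partner names, eEF2K was unmatched, 4EHP is a member and ico is a synonym of mEFG1. Alternatives varied the window, the peak set and the assignment, and left out each replicate. The work used SciPy 1.17.1, pandas 2.3.3, numpy 2.4.6 and matplotlib 3.10.9 under Python 3.11.15.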

Additional observations from a re-analysis of the deposited data

How the results depend on the processing

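The counts of bound initiation, elongation and cytosolic synthetase genes, and that of all members, stayed within 1.5 times the reported value under all alternatives tried (windows of 250 and 1000 bp, the strongest 1803 IDR peaks, the strongest 3607 pooled peaks, peak intervals instead of summits, only summits nearest to the member's TSS, and each replicate left out). The cytosolic synthetase count, 6 as reported, reached the edge of that range both ways. It was 4 (20%) with the 250 bp window, beside 15.04% of all protein-coding genes. It was also 4 where the member's TSS had to be the nearest, beside 14.24% of all genes. Without replicate 1 it was 9 (45%), beside 18.41% of all genes. The count of all members ranged from 17 (19.54%, beside 11.27% of all genes) among the strongest 1803 IDR peaks to 26 (29.89%, beside 18.59%) without replicate 3. That of mitochondrial synthetase genes was small and moved: 2 as reported, 0 among the strongest 1803 IDR peaks, 1 where the member's TSS had to be the nearest, and 0 to 2 with a replicate left out, the 0 being without replicate 1. LeuRS-m and ArgRS-m rank below the limit in those lists, and the summit of LeuRS-m lies nearer to the TSS of Dhc64C. Without replicate 1, the strongest 3607 peaks of replicate 3 bound 21 members, 18 of them among the 22, adding AlaRS, GlyRS and alpha-PheRS; without replicate 3, those of replicate 1 bound 26, 21 of them among the 22, adding TyrRS, eEF1alpha2, eIF2Bbeta, eIF3a and eIF3f1. Matching within 50 or 250 bp did not move the count of members matched in both replicates by more than 1.5 times. Motif counts of bound members near the summit were below those at the promoter (DRE 4 against 7, E-box 2 against 5, GAGAG 2 against 7). No paired analysis was possible because there is 1 group of samples. Depth is unknown, and the number of genes limits each share.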

Other observations

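No member gene on the X chromosome was bound, a count of 0 of 11, which allows a share of up to 27.3%, beside 14.7% of all protein-coding genes of the X. The X members are eIF2alpha, eIF2Bbeta, eIF2Bepsilon, eIF3g1, eIF4E7, eIF4H1, eIF5, ArgRS, HisRS, LysRS and alpha-PheRS. Arm 2L had 6 of 11 bound, 3R 7 of 22, 3L 5 of 21 and 2R 4 of 21, beside 17.4 to 20.3% of all genes on these arms.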
